A study of Homo sapiens with 10 samples.

Results

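The 9 genes of lymphocyte homing described here were measured across RNA-seq libraries of NK-92, an established human cell line derived from a natural killer cell lymphoma. They are the chemokine receptors CCR7, CCR6, CCR1, CXCR3, CXCR4 and CXCR6, the sphingosine-1-phosphate (S1P) receptors S1PR1 and S1PR5, and RGS1, a regulator of G protein signalling. They were taken by symbol from the deposited gene table and make up 9 of its 54628 genes. Of these, 8 had enough counts to be tested, and S1PR5 did not. The 10 libraries form 5 groups of 2. Cells had been exposed to 500 µM deferoxamine (DFO, an iron chelator) for 6 h, to 10 µg/mL PPMX-T003 (T003, an antibody against the transferrin receptor TFRC) for 6 h, to DFO for 24 h or to T003 for 24 h, and the untreated cells were taken at 0 h. All groups are the same line, grown in Artemis Medium-1 with human serum, and the labels name no genetic modification. No untreated cells at 6 h or 24 h were analysed here. Time in culture and the agent therefore cannot be told apart in any comparison with untreated cells, or of 24 h with 6 h. Nothing in the labels says that the 2 libraries of a group came from separate cultures, and p-values then measure only the spread between these libraries, which may be technical.

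Chemokine receptors and S1P receptors are seven-transmembrane proteins that couple mainly to inhibitory G proteins and steer lymphocytes along gradients of their ligands. CCR7 guides cells into lymph nodes, CXCR4 keeps them in the bone marrow, and CXCR3, CCR1, CCR6 and CXCR6 lead them to inflamed or peripheral tissues. S1PR1 and, in mature NK cells, S1PR5 act in the opposite sense and draw cells out of tissues towards the S1P of blood and lymph. RGS1 speeds GTP hydrolysis by the same G proteins and so shortens the signal of such receptors. NK-92 cells depend on interleukin-2 and, as a line of activated NK cells, need not carry the receptors of resting blood NK cells.

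The sequence before the RefSeq start is shown for 4 genes, RGS1 because it separated the agents, S1PR1 because it rose with both, and CXCR3 and CXCR4 because they fell. The windows hold the 250 bases before the first listed RefSeq start in GRCh38.p14, read 5′ to 3′ on the strand of the gene. For S1PR1 the 130 bases that lie outside the annotated gene are shown. Capitals mark ACGTG or GCGTG, the core that hypoxia-inducible factors bind, and CACCC, a core of Krüppel-like factors, on either strand. CXCR4 is a known target of hypoxia-inducible factors, whose degradation needs iron, and S1PR1 is a known target of KLF2.
RGS1, chr1:192575523-192575772, plus strand: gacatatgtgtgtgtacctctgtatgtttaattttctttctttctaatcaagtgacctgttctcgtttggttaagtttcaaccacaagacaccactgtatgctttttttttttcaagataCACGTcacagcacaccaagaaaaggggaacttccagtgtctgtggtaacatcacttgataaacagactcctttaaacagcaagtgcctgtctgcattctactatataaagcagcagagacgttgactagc
S1PR1, chr1:101236769-101236898, plus strand: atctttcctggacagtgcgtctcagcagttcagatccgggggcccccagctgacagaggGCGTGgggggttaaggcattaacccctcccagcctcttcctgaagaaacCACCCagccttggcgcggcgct
CXCR3, chrX:71618512-71618761, minus strand: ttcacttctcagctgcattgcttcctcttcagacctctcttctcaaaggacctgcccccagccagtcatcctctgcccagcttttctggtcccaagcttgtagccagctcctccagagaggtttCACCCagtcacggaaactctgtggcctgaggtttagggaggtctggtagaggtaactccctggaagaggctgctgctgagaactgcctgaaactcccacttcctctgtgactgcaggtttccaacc
CXCR4, chr2:136118150-136118399, minus strand: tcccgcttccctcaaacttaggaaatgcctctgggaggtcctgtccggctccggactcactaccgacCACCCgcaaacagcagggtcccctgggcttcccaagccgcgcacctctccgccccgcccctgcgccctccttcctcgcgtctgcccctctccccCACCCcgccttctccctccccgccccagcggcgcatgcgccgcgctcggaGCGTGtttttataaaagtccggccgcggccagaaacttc
The RGS1 window held 1 ACGTG, on the reverse strand, with its bases at -130 to -126 from the start. The S1PR1 stretch held 1 GCGTG and 1 CACCC, and the first of 3 CXCR4 windows 1 GCGTG at -39 to -35 and 2 CACCC. The second CXCR4 window, not shown, held 2 CACCC, and the third, also not shown, 2 GCGTG and 3 CACCC. The CXCR3 window had CACCC alone, 1 time. None of the windows of these 4 genes held TGANTCA (AP-1) or TTCNNNGAA (STAT) in its 250 bases. The CCR1 window had 1 TTCNNNGAA and the first of 3 CCR6 windows had 2. These cores are short and common. Over 35116 windows of the same length, 18.5% held ACGTG, 32.2% GCGTG, 54.7% CACCC, 6.57% TGANTCA and 6.57% TTCNNNGAA, so a match is a description of letters and not of a bound site.

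In GRCh38.p14, CCR7 is at chr17:40553769-40565472, CCR6 at chr6:167111795-167139141, CCR1 at chr3:46201711-46208313, CXCR6 at chr3:45940915-45948351, CXCR3 at chrX:71615919-71618511, CXCR4 at chr2:136114349-136118149, S1PR1 at chr1:101236899-101242313, S1PR5 at chr19:10512742-10517965 and RGS1 at chr1:192575773-192580024. CCR1 overlaps CCR3 and CXCR6 overlaps FYCO1, each on the opposite strand and with 0 shared exon bases. CCR6 shares 3005 exon bases with an unnamed gene on its own strand, and RGS1 overlaps an unnamed antisense gene, neither of which is listed in the count table. Whether reads were assigned by strand is not stated in the labels, so reads of such opposite pairs may be mixed.

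Each library held between 107117892 and 143575614 estimated counts. A count of 3 corresponded to 0.0209 to 0.0278 CPM, counts scaled to library size. TFRC, the antibody's target, whose mRNA is known to be stabilised when iron is low, had 361 and 345 CPM with DFO at 6 h and 437 and 419 CPM with T003 at 6 h. At 24 h it had 834 and 833 CPM with DFO and 845 and 847 CPM with T003, against 177 and 165 CPM in untreated cells. Of 15 NK cell markers 14 averaged at least 1 CPM, and the exception was FCGR3A. The B cell gene MS4A1 had 0 counts in every library, as had the T cell genes CD3G and CD8B. Of 9 T cell markers 6 averaged under 1 CPM. The other 3 were CD3E at 433 CPM, CD28 at 107 CPM and CD6 at 17.3 CPM, and the T cell sums rest on these. Summed T cell markers were 523 to 527 CPM with DFO at 6 h, 534 to 540 CPM with T003 at 6 h, 575 to 598 CPM with DFO at 24 h, 584 to 592 CPM with T003 at 24 h and 550 to 551 CPM in untreated cells. Summed NK markers were 3434 to 3452 CPM with DFO at 6 h and 3470 to 3540 CPM with T003 at 6 h. They were 3756 to 3785 CPM with DFO at 24 h, 3991 to 4017 CPM with T003 at 24 h and 3563 to 3618 CPM in untreated cells. The part of these marker genes in the results was not tested.

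Levels of different genes are compared per kilobase (kb) of the canonical transcript, on a linear scale. CXCR4 has 1668 bases in that transcript but 2902 over all its annotated exons, and RGS1 has 1352 and 4074. CCR7 has 2173 and 2508, and CCR1 has 2646 by either measure. The order of neighbours such as CXCR4 and CCR1, or CCR7 and RGS1, therefore depends on the length chosen. In untreated cells CXCR3 was the highest at 89.2 ± 1.07 CPM per kb (SD, n = 2). CXCR4 at 43.0 ± 2.92 and CCR1 at 39.3 ± 2.21 CPM per kb followed, and their SDs met. Both CXCR4 libraries, at 40.9 and 45.1 CPM per kb, still lay above the CCR1 libraries at 40.8 and 37.7 CPM per kb. S1PR1 stood at 7.90 ± 0.0521 CPM per kb. The libraries of CCR7 at 4.69 ± 0.344 and RGS1 at 4.28 ± 0.508 CPM per kb overlapped. So did those of CCR6 at 0.856 ± 0.0196 and CXCR6 at 0.790 ± 0.152 CPM per kb. S1PR5 was at the bottom, with 0 counts in 9 of 10 libraries and 3 counts in DFO 24 h replicate 2, which is at the floor. A count of 0 allows a level of up to 0.0209 to 0.0278 CPM, depending on the library and covering counting error only. By canonical length, the order of some neighbours changed at 24 h. The order by the length over all exons was not computed. CCR1 averaged 45.1 CPM per kb with DFO and 48.1 CPM per kb with T003, above CXCR4 at 36.2 CPM per kb with DFO and 39.2 CPM per kb with T003, and CCR7 lay below RGS1 with either agent. CXCR6 averaged 0.796 CPM per kb with DFO and 0.953 with T003, above CCR6 at 0.778 and 0.852, but their libraries overlapped.

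**Figure D1:**
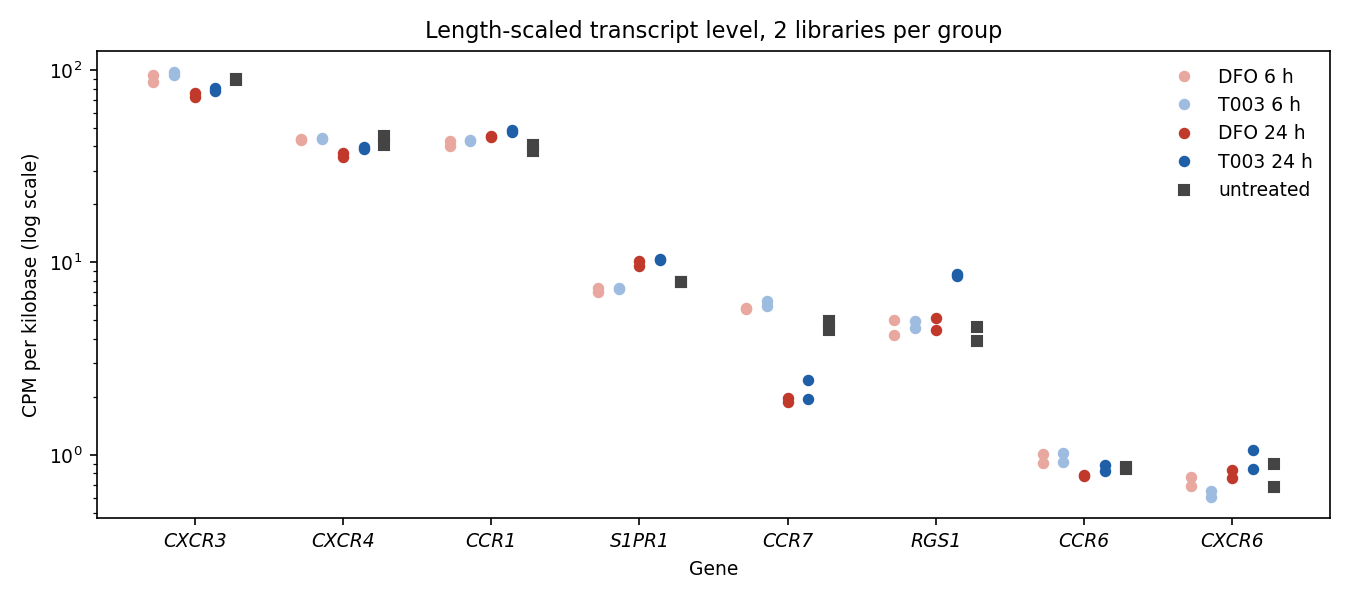
Level of 8 genes in CPM per kb of canonical transcript on a log axis, with 1 point per library and 2 libraries per group. CXCR3 is highest throughout, the CCR7 points of both agents at 24 h lie below its other points, and the RGS1 points of T003 at 24 h stand above those of the other groups.

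Differences were tested with edgeR's quasi-likelihood test on all 20125 genes that passed a filter on low counts, with Benjamini-Hochberg adjustment over these genes, and a gene is called changed at an adjusted p under 0.05. Comparisons with untreated cells share the same 2 untreated libraries. In bulk RNA, fewer cells with a transcript and less of it per cell cannot be told apart. At 6 h none of the 8 tested genes was called with DFO, where 0.0248% of all tested genes were, or with T003, where 0.0298% were. DESeq2 and limma-voom also called 0 of the 8. At an unadjusted p under 0.05 there were 2 with DFO (2494 of all genes) and 3 with T003 (1516 of all genes). CCR7 had the largest early difference. It stood at 12.5 and 12.5 CPM with DFO and 12.9 and 13.6 CPM with T003, against 10.7 and 9.67 CPM in untreated cells. The log2 fold change of CCR7 at 6 h was 0.29 (SE 0.104, adjusted p = 0.293) with DFO and 0.38 (SE 0.104, adjusted p = 0.441) with T003, and all 4 treated libraries lay above both untreated ones. S1PR1 had 19.4 and 20.4 CPM with DFO and 20.3 and 20.3 CPM with T003 at 6 h, just under the untreated libraries, with log2 fold changes of -0.14 (adjusted p = 0.291) and -0.11 (adjusted p = 0.662). The other genes lay within log2 differences of -0.33 (CXCR6 with T003) and 0.18 (CCR6 with T003) of untreated cells. Between the agents at 6 h no gene was called, neither of the 8 nor of all genes (0%), although 1334 genes had an unadjusted p under 0.05, and DESeq2 called 6 genes, none of them among the 8.

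At 24 h DFO gave 5 called genes of the 8, CCR1 and S1PR1 higher and CCR7, CXCR3 and CXCR4 lower. T003 gave 5 as well, CCR1, S1PR1 and RGS1 higher and CCR7 and CXCR3 lower. Over all tested genes 6.70% were called with DFO, 3.43% higher and 3.27% lower, and 12.5% with T003, 7.10% higher and 5.44% lower. Without untreated replicate 2 the counts behind these shares fell to 431 in place of 1349 genes with DFO and to 1084 in place of 2524 with T003. Genes with a mean of at least 1 CPM, which all 8 reached, were called more often, 10.5% of 12484 with DFO and 19.4% with T003. The 8 did not move one way. Their median log2 fold change was -0.06 with DFO and 0.13 with T003, beside -0.00229 and -0.00688 over all genes tested. Apart from CCR7 with both agents and RGS1 with T003, the log2 fold changes of these genes at 24 h were at most 0.38 in size.

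**Figure D2:**
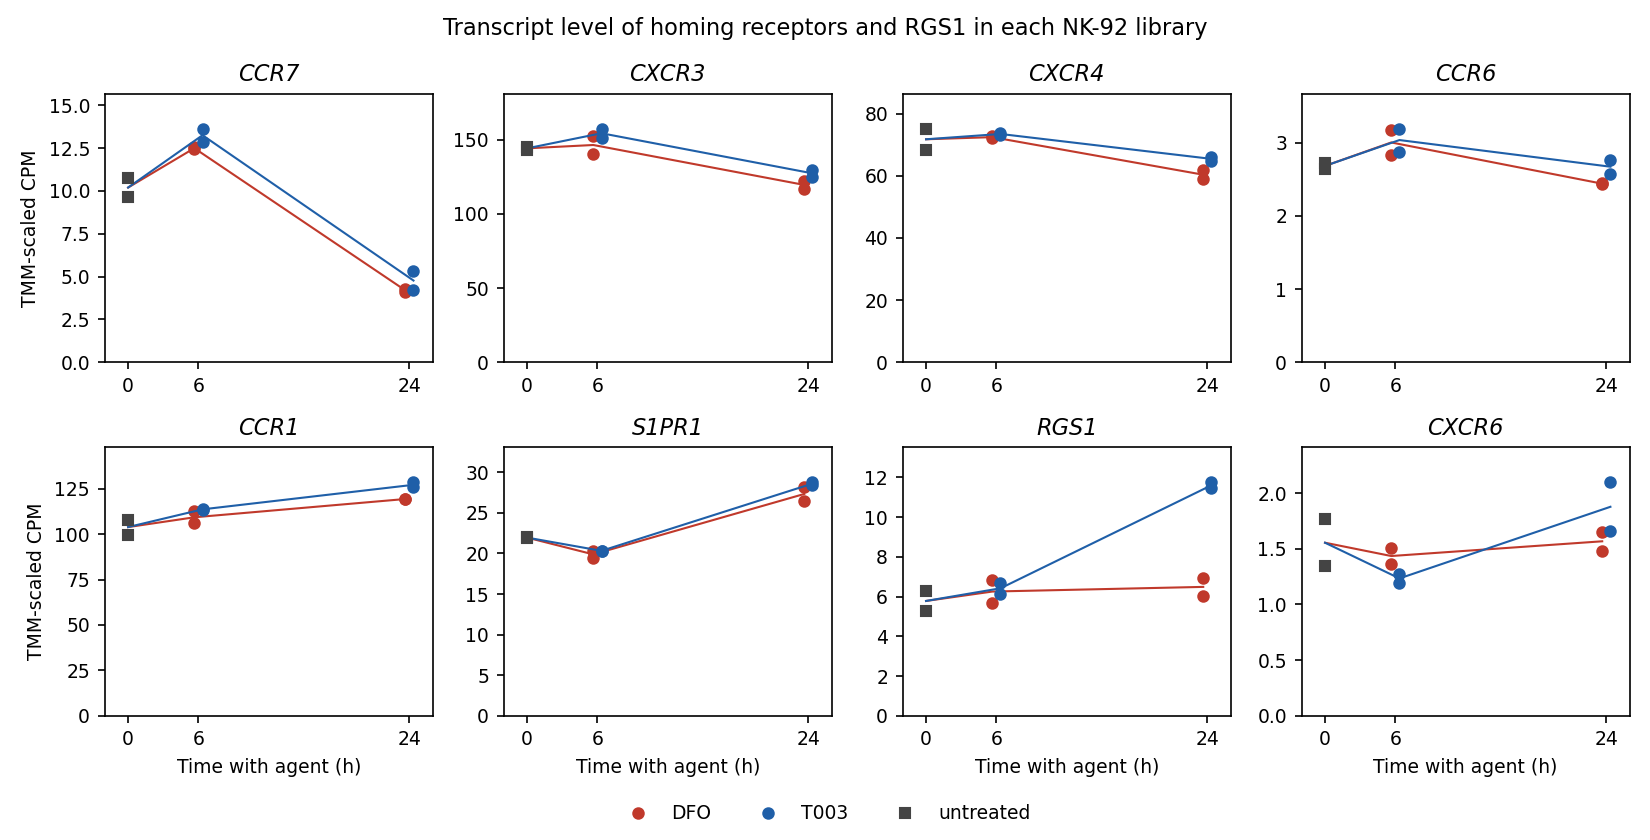
TMM-scaled CPM of 8 genes against hours with the agent, with 1 point per library, lines through the means of 2 libraries and linear axes that start at 0. CCR7 is near 4 to 5 CPM with either agent at 24 h, S1PR1 is above 26 CPM, and RGS1 is above 11 CPM with T003 alone.

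CCR7, the receptor for CCL19 and CCL21, changed most. At 24 h it had 4.30 and 4.09 CPM with DFO and 4.22 and 5.32 CPM with T003, against 10.7 and 9.67 CPM in untreated cells. All 4 treated libraries lay below both untreated ones, and far below the 6 h libraries. The log2 fold change was -1.28 (SE 0.108, adjusted p = 7.05e-05), or 0.412 of the untreated level, with DFO, and -1.10 (SE 0.108, adjusted p = 0.000107), or 0.468 of it, with T003. DFO minus T003 at 24 h was -0.18 with a 95% interval of -0.43 to 0.06, which does not show that the agents act alike. Neither CCL19 nor CCL21 had enough counts to be tested.

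CXCR3, the receptor for the interferon-induced chemokines CXCL9, CXCL10 and CXCL11, fell by a smaller amount. It had 117 and 122 CPM with DFO at 24 h and 130 and 125 CPM with T003 at 24 h, against 143 and 145 CPM in untreated cells. The groups did not overlap. Its log2 fold change was -0.27 (SE 0.041, adjusted p = 0.00267) with DFO and -0.18 (SE 0.041, adjusted p = 0.0152) with T003. The T003 call was lost without T003 24 h replicate 2 (adjusted p = 0.135) or without untreated replicate 2 (adjusted p = 0.120).

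CXCR4, the receptor for CXCL12, had 61.7 and 58.9 CPM with DFO at 24 h and 64.8 and 66.0 CPM with T003 at 24 h, against 68.3 and 75.2 CPM in untreated cells. The DFO libraries were the lowest of the series. With DFO it fell by 0.25 on the log2 scale (SE 0.042, adjusted p = 0.00529), a call that was lost without DFO 24 h replicate 2 (adjusted p = 0.0635). The value with T003 was -0.13 (SE 0.042, adjusted p = 0.067) and missed the threshold. It was called with DESeq2 (adjusted p = 0.0270), with no filter on low counts (0.0455), with a filter of 1 CPM in 2 libraries (0.0361) and without untreated replicate 1 (0.0103), where the value was -0.20. Without untreated replicate 2 it was -0.06 (adjusted p = 0.473). DFO minus T003 was -0.12 with an interval of -0.21 to -0.02 and an adjusted p of 0.236.

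CCR1 binds CCL3 and CCL5 and rose with both agents. It had 119 and 120 CPM with DFO at 24 h and 129 and 126 CPM with T003 at 24 h, against 108 and 99.8 CPM in untreated cells. Every treated library at 24 h lay above the untreated ones. The log2 fold change was 0.20 (SE 0.039, adjusted p = 0.0116) with DFO and 0.29 (SE 0.039, adjusted p = 0.000786) with T003. The DFO call was lost without DFO 24 h replicate 2 (adjusted p = 0.0673) or untreated replicate 2 (adjusted p = 0.0922). CCR3, which overlaps CCR1 on the other strand, was under 1.1 CPM in every library.

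Among 17 ligands of these chemokine receptors 5 could be tested, and 3 of them, CCL3, CCL3L3 and CCL4, rose at 24 h with DFO and with T003, while none fell. The shares called higher over all tested genes were 3.43% with DFO and 7.10% with T003. CCL3, an inflammatory chemokine that NK cells secrete, had 1415 and 1526 CPM with DFO and 1794 and 1779 CPM with T003, against 984 and 767 CPM in untreated cells. Its log2 fold change was 0.75 (SE 0.083, adjusted p = 0.000363) with DFO and 1.03 (SE 0.083, adjusted p = 3.39e-05) with T003. CCL4, a chemokine secreted together with CCL3, had 192 and 205 CPM with DFO and 222 and 217 CPM with T003, against 147 and 92.8 CPM in untreated cells. The untreated pair was far apart for CCL4, and its DFO value of 0.73 became 0.44 without untreated replicate 2 and 1.10 without untreated replicate 1. The DFO call was lost without DFO 24 h replicate 2 (adjusted p = 0.0854) and with the compared groups alone (adjusted p = 0.0740). CCL3L3 is a near copy of CCL3, so its counts are uncertain, and its DFO call was lost without the same library (adjusted p = 0.0842). CCL5 and MIF were not called by edgeR, with log2 fold changes between -0.03 and 0.07. CCL5 with T003, at 0.07 (adjusted p = 0.062), was called by DESeq2 (adjusted p = 0.00622), by limma-voom (0.0182) and with the filter of 1 CPM in 2 libraries (0.0454), so that DESeq2 and limma-voom called 4 ligands with T003 in place of 3. The median of the 5 ligands was 0.73 with DFO and 0.87 with T003.

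S1PR1, the receptor that lets lymphocytes leave tissue, rose at 24 h. It had 26.5 and 28.1 CPM with DFO and 28.8 and 28.4 CPM with T003, against 22.0 and 21.8 CPM in untreated cells. All 4 treated libraries exceeded the untreated ones and those at 6 h. The log2 fold change was 0.32 (SE 0.050, adjusted p = 0.00369) with DFO and 0.38 (SE 0.050, adjusted p = 0.000729) with T003. DFO minus T003 was -0.07, with an interval of -0.18 to 0.04. KLF2, a transcription factor known to activate S1PR1, had 4.0 and 3.83 CPM with DFO at 24 h and 3.42 and 2.67 CPM with T003 at 24 h, against 2.30 and 1.52 CPM in untreated cells. KLF2 rose with DFO (log2 fold change 1.03, SE 0.213, adjusted p = 0.0152), a call lost without either DFO 24 h library or untreated replicate 2 (adjusted p of 0.0709 to 0.140), and stood at 0.67 (adjusted p = 0.0686) with T003. That T003 value was called with the replicate block (adjusted p = 0.0365), DESeq2 (0.0236), limma-voom (0.0476), the filter of 1 CPM in 2 libraries (0.0486) and without untreated replicate 1 (0.0279), where it was 0.99. CD69, whose protein holds S1PR1 inside the cell, had 6.12 and 6.98 CPM with DFO at 24 h and 8.51 and 8.86 CPM with T003 at 24 h, against 5.72 and 5.62 CPM in untreated cells. It rose with T003 by 0.62 (SE 0.097, adjusted p = 0.00200) and was at 0.21 (adjusted p = 0.276) with DFO. DFO minus T003 at 24 h was -0.41 (adjusted p = 0.0723) for CD69 and 0.37 (adjusted p = 0.497) for KLF2, and neither was called. Of the other 15 genes of S1P receptors, metabolism and transport, 11 were tested and edgeR, DESeq2 and limma-voom called 0 at 24 h with either agent, while 5 with DFO and 2 with T003 had an unadjusted p under 0.05. Among them the S1P exporter SPNS2 was at log2 fold changes of 0.35 (adjusted p = 0.111) with DFO and 0.36 (adjusted p = 0.0748) with T003, the last of which passed with the filter of 1 CPM in 2 libraries (adjusted p = 0.0495) and with the replicate block (adjusted p = 0.0448). Of all tested genes, edgeR called 6.70% with DFO and 12.5% with T003 at 24 h.

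RGS1 was the gene of the 9 that separated the agents. At 24 h it had 6.03 and 6.95 CPM with DFO and 11.4 and 11.8 CPM with T003, against 6.27 and 5.30 CPM in untreated cells. The T003 libraries stood above all others, and the DFO and untreated libraries overlapped. RGS1 rose 2.01-fold with T003 (log2 fold change 1.0, SE 0.119, adjusted p = 0.000382) and was at 0.17 (SE 0.119, adjusted p = 0.53) with DFO. DFO against T003 at 24 h gave a log2 fold change of -0.84 (SE 0.118, 95% interval -1.10 to -0.58, adjusted p = 0.0108), which is 0.559 of the T003 level. It was 1 of 8 called in that comparison, where 1.34% of all tested genes were, 270 genes that became 14 to 229 when 1 library was left out. Without any single one of the 4 libraries compared this call was lost, with adjusted p of 0.0511 to 0.102 and log2 fold changes of -0.94 to -0.73. The other 7 genes were not called between the agents at 24 h, and all 7 had estimates below 0, of which CCR1, CXCR3 and CXCR4 had an unadjusted p under 0.05. The interaction of agent and time, the 24 h against 6 h difference of DFO minus that of T003, called 0 of 8, beside 0.0199% of all genes. For RGS1 it was -0.80 (SE 0.168, adjusted p = 0.176), the 1 gene with an unadjusted p under 0.05 (1851 of all genes), and DESeq2 and limma-voom called none of the 8.

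**Figure D3:**
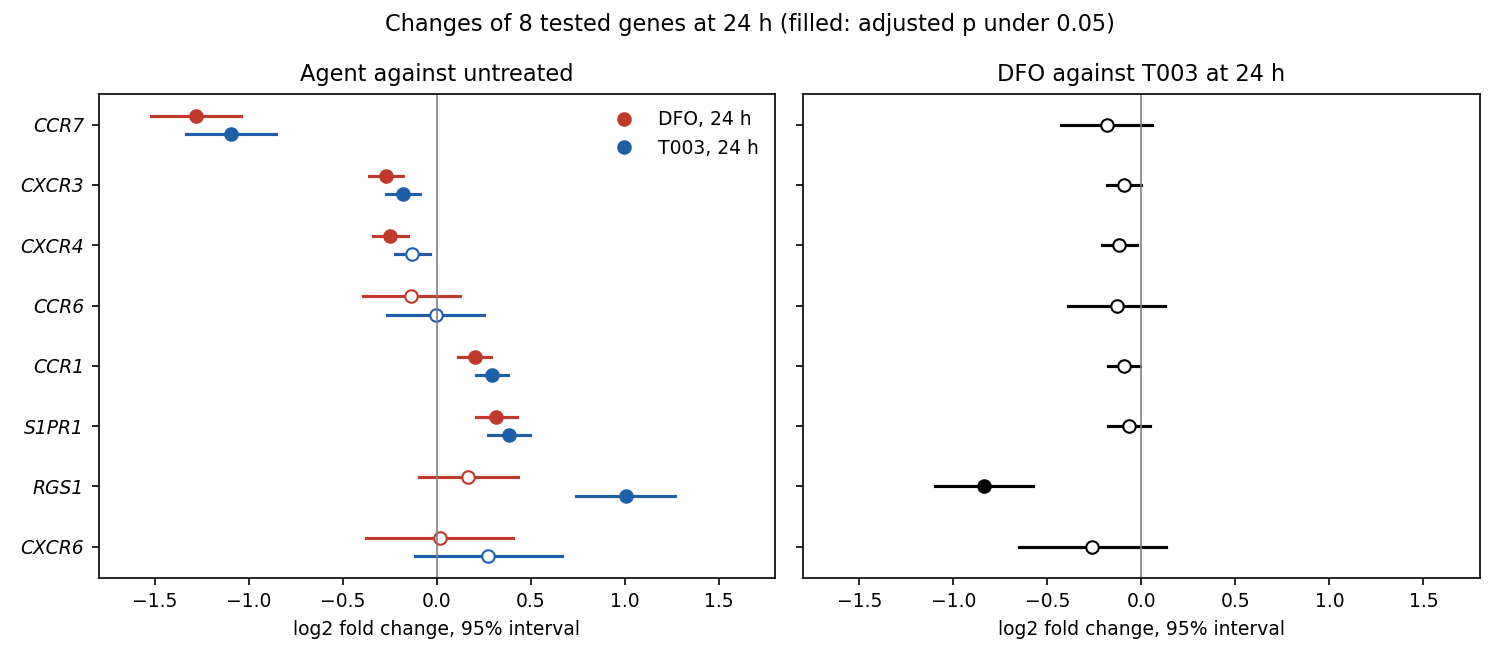
Log2 fold change with its 95% interval for 8 genes at 24 h, for each agent against untreated cells (left) and DFO against T003 (right). Filled points have an adjusted p under 0.05. RGS1 is the one filled point at the right, at -0.84.

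CCR6, the receptor for CCL20, and CXCR6, the receptor for CXCL16 and a mark of tissue-resident NK cells, were low and were not called against untreated cells. CCR6 had 2.43 and 2.45 CPM with DFO at 24 h and 2.77 and 2.58 CPM with T003 at 24 h, against 2.73 and 2.64 CPM in untreated cells. Its 95% interval at 24 h was -0.39 to 0.12 with DFO and -0.26 to 0.25 with T003. CXCR6 had 1.48 and 1.65 CPM with DFO at 24 h and 1.65 and 2.10 CPM with T003 at 24 h, against 1.34 and 1.77 CPM in untreated cells. The untreated pair spanned most of this range. The interval of CXCR6 was -0.38 to 0.40 with DFO and -0.12 to 0.66 with T003. FYCO1, which overlaps CXCR6 on the other strand without shared exon bases, had 35.3 to 42.6 CPM over the 10 libraries.

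The comparison of 24 h with 6 h within an agent takes no difference from untreated cells. Time in culture and length of exposure cannot be told apart in it either. The untreated libraries still enter its estimate of the spread, since all 10 libraries share 1 fit. With DFO 4 of 8 were called, S1PR1 higher and CCR7, CXCR3 and CXCR4 lower, beside 9.89% of all genes (5.29% higher and 4.60% lower). With T003 7 of 8 were called, CCR1, CXCR6, S1PR1 and RGS1 higher and CCR7, CXCR3 and CXCR4 lower, beside 13.5% of all genes (7.55% higher and 5.93% lower). The fall of CCR7 was larger here, since its 6 h libraries were the highest, at -1.57 (SE 0.109, adjusted p = 9.47e-06) with DFO and -1.47 (SE 0.108, adjusted p = 1.2e-05) with T003. S1PR1 rose with DFO by 0.46 (SE 0.051, adjusted p = 0.000236), and with T003 it rose by 0.49 (SE 0.050, adjusted p = 0.00012). CXCR3 fell by 0.29 with DFO and by 0.28 with T003, with SE 0.041 for each. CXCR4 fell by 0.26 (adjusted p = 0.00272) with DFO and by 0.17 (adjusted p = 0.0236) with T003. RGS1 rose by 0.85 (SE 0.119, adjusted p = 0.000825) with T003 and was at 0.05 (adjusted p = 0.861) with DFO. CXCR6 was called with T003, at 1.65 and 2.10 CPM at 24 h and 1.19 and 1.27 CPM at 6 h (log2 fold change 0.60, SE 0.179, adjusted p = 0.0478), but not by DESeq2 (adjusted p = 0.0679). With DFO it was at 0.13 (adjusted p = 0.769), and the difference between the agents was not called (interaction -0.48, adjusted p = 0.603). Without any single one of the 4 T003 libraries the count of 7 fell to 4, since CCR1, CXCR4 and CXCR6 then missed the threshold. CXCR6 also missed it without any single DFO library (adjusted p of 0.0581 to 0.0642).

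Genes that act with these receptors moved in both directions at 24 h. The shares called over all tested genes were 6.70% with DFO and 12.5% with T003. For genes with a mean of at least 1 CPM they were 10.5% and 19.4%. Of 21 other chemokine receptors 13 were tested, and with DFO edgeR, DESeq2 and limma-voom called 0 of them and 0 had an unadjusted p under 0.05. With T003 each of these tools called 1, which was higher by edgeR, and 3 had an unadjusted p under 0.05. Between the agents at 24 h edgeR called 1, lower with DFO than with T003. The median log2 fold change of the 13 was -0.04 with DFO and -0.15 with T003. Of 23 other RGS and G protein signalling modulators 14 were tested. RGS14, which acts on inhibitory G proteins, rose with DFO (log2 fold change 0.22, adjusted p = 0.0169) and T003 (0.30, adjusted p = 0.00182). DESeq2 and limma-voom called 2 of the 14 with DFO, against 1 by edgeR. RGS9 with DFO was at -0.41 and not called by edgeR. It was called lower by DESeq2 (adjusted p = 0.0440), limma-voom (0.0449) and with the filter of 1 CPM in 2 libraries (0.0371). The RGS14 call with DFO was lost without DFO 24 h replicate 2 (adjusted p = 0.149) or untreated replicate 2 (adjusted p = 0.152). GPSM2, which binds inhibitory G proteins, fell with T003 (-0.27, adjusted p = 0.0328), but not without T003 24 h replicate 1, T003 6 h replicate 2 or either untreated library (adjusted p of 0.0536 to 0.231, log2 fold changes of -0.30 to -0.17). RGS2, a regulator best known for Gq, was at 0.36 (adjusted p = 0.068, and 0.0477 with the filter of 1 CPM in 2 libraries) with T003 and at 0.10 (adjusted p = 0.756) with DFO. The RGS median was 0.09 with DFO and 0.04 with T003.

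Of 47 G proteins, receptor kinases, arrestins and chemotaxis effectors 42 were tested. With DFO 5 rose and 1 fell, and with T003 8 rose and 3 fell, around medians of 0.00886 and 0.000256. Among all tested genes 6.70% were called with DFO and 12.5% with T003. Among those with a mean of at least 1 CPM the shares were 10.5% and 19.4%. With DFO, DESeq2 called 10 and limma-voom 8 of the 42, against 6 by edgeR. PREX1, a Rac activator downstream of G protein subunits, had a log2 fold change of 0.23 with DFO (SE 0.028, adjusted p = 0.00067) and 0.35 with T003 (SE 0.028, adjusted p = 3.16e-05). GNG2, a G protein gamma subunit, rose by 0.24 with DFO and by 0.27 with T003. GRK6, a kinase that desensitises chemokine receptors, rose by 0.12 (adjusted p = 0.0321) with DFO and by 0.20 (adjusted p = 0.00133) with T003. Its DFO call was lost without T003 6 h replicate 1 or any library of DFO at 24 h or of untreated cells (adjusted p of 0.0579 to 0.217). RHOH, a GTPase of blood cells, rose by 0.35 (adjusted p = 0.00214) with T003 and was at 0.20 (adjusted p = 0.0543) with DFO. With DFO, DESeq2 (adjusted p = 0.0308), limma-voom (0.0298) and the filter of 1 CPM in 2 libraries (0.0385) called it. DFO minus T003 at 24 h was -0.14 for RHOH and not called (adjusted p = 0.262).

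Adhesion and tissue residence genes, of which 31 of 33 were tested, gave 10 higher and 6 lower with DFO and 8 higher and 6 lower with T003, with a median of 0.06 for each agent. Of all tested genes 3.43% were higher and 3.27% lower with DFO, and 7.10% higher and 5.44% lower with T003. Among genes with a mean of at least 1 CPM, 10.5% were called in either direction with DFO and 19.4% with T003. ZNF683, the transcription factor Hobit of tissue-resident lymphocytes, had 0.665 and 0.503 CPM with DFO at 24 h and 0.758 and 0.488 CPM with T003 at 24 h, against 3.35 and 3.21 CPM in untreated cells. Its log2 fold change was -2.49 (SE 0.196, adjusted p = 4.39e-05) with DFO and -2.40 (SE 0.195, adjusted p = 3.51e-05) with T003. PRDM1, which encodes the related factor Blimp-1, rose by 0.35 (adjusted p = 0.000849) with DFO and by 0.51 (adjusted p = 4.93e-05) with T003. SELPLG, the selectin ligand PSGL-1, had 62.7 and 58.9 CPM with DFO and 71.3 and 69.4 CPM with T003, against 99.1 and 108 CPM in untreated cells. With DFO it fell by 0.77 (SE 0.044, adjusted p = 6.5e-06), and with T003 it fell by 0.56 (SE 0.044, adjusted p = 2.82e-05). ICAM1, an adhesion molecule that binds LFA-1, rose by 0.30 (adjusted p = 0.0014) with DFO and by 0.44 (adjusted p = 7.83e-05) with T003.

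**Figure D4:**
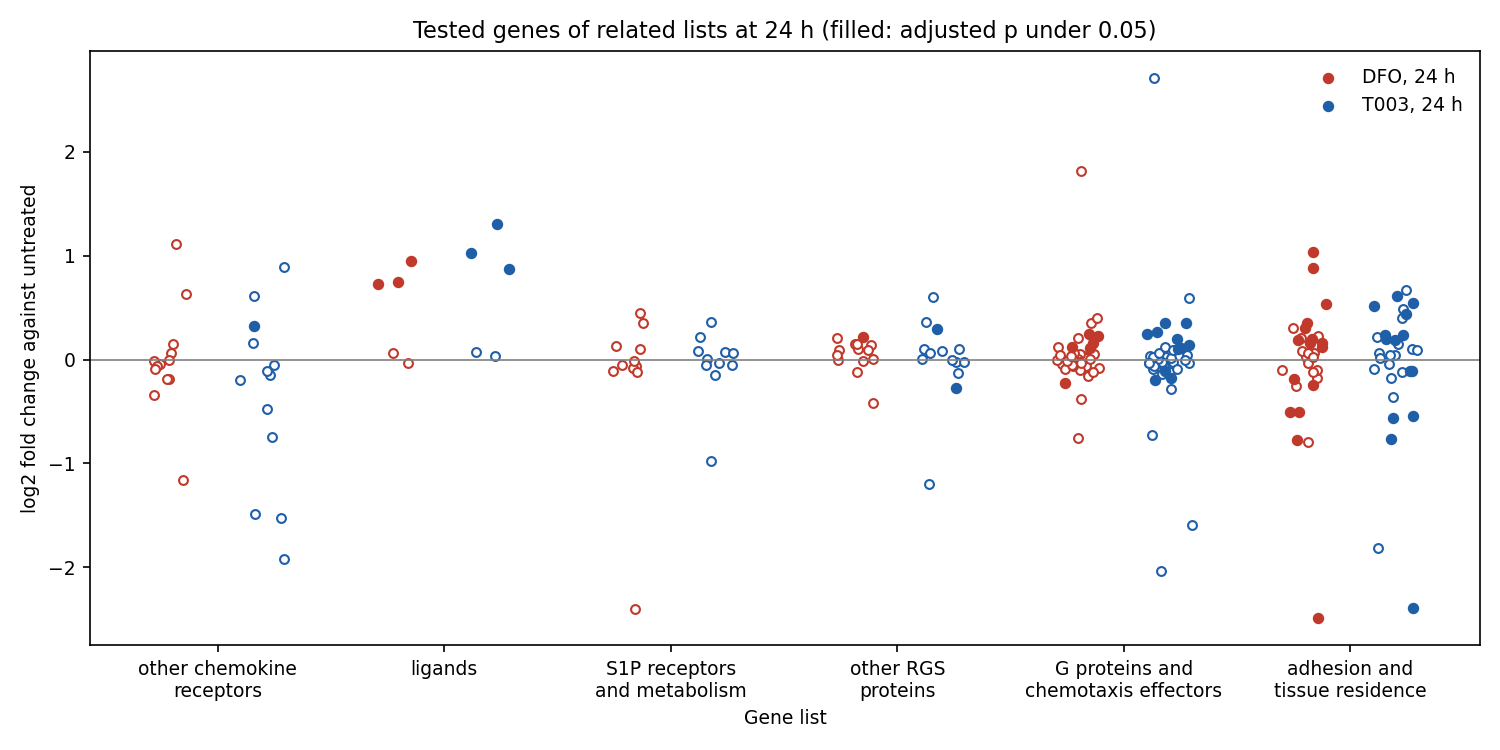
Log2 fold change at 24 h against untreated cells for every tested gene of 6 related lists, with 1 point per gene and agent, filled where the adjusted p is under 0.05. The filled ligand points (CCL3, CCL3L3 and CCL4) are all above 0, the S1P list has none, and the lowest filled points are ZNF683.

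Across the 10 libraries the genes fell into patterns that are given as a description, since libraries of 1 group share their treatment. Pearson's r between log2 CPM was -0.971 for CCR7 with S1PR1, 0.930 for CCR7 with CXCR3 and 0.902 for CCR7 with CXCR4, and 0.841 for CCR1 with RGS1. CCR6 with RGS1 gave the weakest value, -0.181. Among 12483 other tested genes with a mean of at least 1 CPM, the nearest to CCR7 were NLRC3 (0.997), CD58 (0.993) and CHMP7 (0.992). Nearest to S1PR1 were HDAC7 (0.991), SLC25A22 (0.990) and FYN (0.990), and to RGS1 KLHL18 (0.977) and IRF4 (0.976). CXCR3 was most like VIM (0.991), ADCY3 (0.983) and KLF13 (0.981). CXCR4 was most like NBR1 (0.978), ARRDC3 (0.977) and NQO1 (0.977), and CCR1 like SMIM20 (0.964), SLC16A6 (0.957) and ISG20L2 (0.955).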

How the data were processed

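Polyadenylated RNA of NK-92 cells was sequenced in 10 libraries (TruSeq Standard mRNA kit, per the labels' protocols). Per the submitters' processing notes, the tools were fastp 0.21.0 for trimming, HISAT2 2.2.1 for alignment (build hg38) and StringTie 2.1.6 for counting. Values are estimated counts as the authors deposited them, unscaled and already whole, and needed no rounding. Such counts come from read coverage and share reads between overlapping transcripts by estimate. Totals of 107117892 to 143575614 counts set the precision, and floors cover counting error only.

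The 9 genes and all gene lists were chosen with earlier results of these data known. Groups follow the sample labels. All 10 libraries entered 1 fit in edgeR 4.0.16 (R 4.3.3), with group as the only term, TMM scaling, filterByExpr with a minimum count of 10, glmQLFit and glmQLFTest, and Benjamini-Hochberg adjustment over 20125 genes, for 9 comparisons. The steps were tested on simulated data. Levels are TMM-scaled CPM, divided by the length of the Ensembl canonical transcript in GENCODE for CPM per kb. SE is the log2 fold change over the square root of F, and intervals use the moderated degrees of freedom. Correlations used log2 CPM with a prior count of 2. Alternatives were RLE scaling, other filters, limma-voom (limma 3.58.1), DESeq2 1.42.0, a replicate block, the compared groups alone and leaving out each library. Named genes are the 9, the up to 4 genes of each list with the smallest p at 24 h, genes with a stated role beside them, and the 3 most correlated genes of each called one. No 2 libraries held identical values. Motifs were counted in the 250 bases before RefSeq starts, without the 50 bases after them that had been planned. CCR7 has no entry in the promoter table. A few genes that the rule names are not reported here.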

Additional observations from a re-analysis of the deposited data

Results flagged for a closer look

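RGS1 differed between the agents at 24 h, which the comparison of DFO with T003 tested directly. The 2 DFO libraries had 6.03 and 6.95 CPM and the 2 T003 libraries 11.4 and 11.8 CPM, a log2 fold change of -0.84 (edgeR quasi-likelihood test, SE 0.118, adjusted p = 0.0108). The call did not survive leaving out any of the 4 libraries compared (adjusted p of 0.0511 to 0.102), and the interaction of agent and time was not called (adjusted p = 0.176).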

How the results depend on the processing

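For the 8 genes, 72 log2 fold changes were recomputed under 1224 alternatives. Direction and side of the threshold held in 1161, the call was lost in 29, gained in 9, and the sign turned in 25, each time for an uncalled value after 1 library was left out. For other named genes, 880 of 948 held, 40 lost the call, 22 gained it and 6 turned. CCR7 and S1PR1 at 24 h with either agent, CXCR3 with DFO, and CCR1 and RGS1 with T003, kept their calls against untreated cells in all alternatives. The count of called genes among the 8 ranged from 3 to 5 for DFO at 24 h, lowest without DFO 24 h replicate 2, from 0 to 1 for DFO against T003 at 24 h, and from 4 to 7 for T003 at 24 h against 6 h when 1 library was left out. CXCR6 in T003 at 24 h against 6 h also missed the threshold with DESeq2 (adjusted p = 0.0679), limma-voom (0.0662), no filter (0.0667) and the compared groups alone (0.0598). CCR1 in DFO at 24 h against 6 h passed with DESeq2 (0.0127), no filter (0.0431) and the replicate block (0.0470). Its call also changed without either untreated library. The log2 fold change was then 0.125 without untreated replicate 1 and 0.134 without untreated replicate 2, against 0.127. The cause of these changed calls was not tested. RLE scaling moved no median over all genes by 0.1. Values whose sign turned when 1 library was left out were as follows. For DFO at 6 h against untreated cells the log2 fold changes then spanned CXCR3 -0.045 to 0.084, CXCR4 -0.051 to 0.083, CXCR6 -0.30 to 0.095 and RGS1 -0.023 to 0.24. With T003 at 6 h against untreated cells the range was CXCR4 -0.029 to 0.11. At 24 h with DFO against untreated cells it was CXCR6 -0.17 to 0.23 and MIF -0.049 to 0.17. At 24 h with T003 against untreated cells it was CCR6 -0.062 to 0.044, SPHK2 -0.069 to 0.0052, RGS9 -0.066 to 0.049 and MIF -0.090 to 0.14. Between DFO and T003 at 6 h it was CCR6 -0.11 to 0.063, S1PR1 -0.073 to 0.0028 and RGS1 -0.18 to 0.081. In DFO at 24 h against 6 h it was RGS1 -0.062 to 0.19. In the interaction it was CCR7 -0.25 to 0.084, CCR1 -0.068 to 0.015, CXCR3 -0.071 to 0.059 and S1PR1 -0.072 to 0.017.

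The labels do not say whether equal replicate numbers mark a shared culture, and correlations from 2 libraries per group cannot decide it. Over 10 pairs of groups the correlation of same-numbered deviations was -0.234 to 0.162, and 3 pairs exceeded 0.1. With the replicate block the 8 genes gave 5 calls for DFO at 24 h, 5 for T003 at 24 h, 1 for DFO against T003 at 24 h, 5 for DFO at 24 h against 6 h, 7 for T003 at 24 h against 6 h and 0 elsewhere. Over all genes the block gave 117 calls for DFO against T003 at 24 h in place of 270, and 2 in place of 5 and 1 in place of 6 for DFO and T003 at 6 h. Other settings that moved a count over all genes by more than 1.5 times were DESeq2 (434 and 69 at 6 h, 878 for DFO against T003 at 24 h, 180 in place of 4 for the interaction), limma-voom (25 for DFO at 6 h, 19 for the interaction), no filter (16 for DFO at 6 h, 16 for the interaction), a filter of 1 CPM in 2 libraries (446 for DFO against T003 at 24 h, 10 for the interaction) and the compared groups alone (851 in place of 1349 for DFO at 24 h, 55 for DFO against T003 at 24 h, 1293 in place of 1991 for DFO at 24 h against 6 h). DFO against T003 at 6 h had 0 calls, and 1 to 6 under these settings. Leaving out 1 library moved the counts over all genes furthest, to 431 to 1383 for DFO at 24 h, 1084 to 2544 in place of 2524 for T003 at 24 h, 14 to 229 for DFO against T003 at 24 h, 950 to 1824 for DFO at 24 h against 6 h, 1336 to 2739 in place of 2714 for T003 at 24 h against 6 h, 1 to 11 for DFO at 6 h, 1 to 13 for T003 at 6 h, 0 to 4 for the agents at 6 h and 2 to 11 for the interaction.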
